A study of Mus musculus with 22 samples.

Results

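The Wnt genes described here are 42 protein-coding genes of the mouse, out of 53342 genes counted in this series of pancreatic tumors and cancer cell lines with or without microRNA-21. They were chosen by name: every Wnt, Fzd, Sfrp or Dkk gene whose symbol goes on with a digit, together with Lrp5, Lrp6, Wif1, Frzb and Axin2. By role they are 19 Wnt ligands, 10 Frizzled receptors, the 2 co-receptors Lrp5 and Lrp6, 10 secreted antagonists and Axin2, a feedback gene that serves as a common readout of the pathway. The rule itself uses no measured value.

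Wnt ligands are secreted glycoproteins that carry a lipid, which is added by Porcn, and they are brought to the cell surface by Wls. On the receiving cell they join a Frizzled receptor to Lrp5 or Lrp6. Dishevelled proteins then stop the Axin, Apc and Gsk3 complex from marking β-catenin for destruction, and β-catenin with Tcf and Lef factors switches on target genes such as Axin2, Nkd1 and Lef1. Antagonists act outside the cell: the Sfrp proteins, Frzb and Wif1 bind Wnt ligands, whereas Dkk1, Dkk2 and Dkk4 bind the co-receptors. In the pancreas the pathway is known for its part in the growth of exocrine tissue, and pancreatic cancer cells that lack the ubiquitin ligase Rnf43 can come to depend on Wnt signals received through Fzd5.

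RNA was sequenced from 22 libraries, of which 12 were whole tumors and 10 were cancer cell lines. All are labelled Bl6. The tumors were 8 with the genotype miR21 KO (called KO) and 4 wild type for it (WT). Likewise, the lines were 5 KO and 5 WT, grown out of dissociated tumors by at least 8 passages to lose fibroblasts and used at passage 10 to 14 in 5% serum. The titles carry the prefix KPC in all groups, the series title names K-Ras-driven models, and the culture protocol speaks of recombined K-Ras and p53 alleles in the lines, so WT refers to microRNA-21 alone. The promoter that drives the recombinase and the ages of the mice are not given in the sources used here. No animal or line was treated. By title, 5 animals (3 WT, 2 KO) gave both a line and a tumor, and each line is a single culture of 1 animal. Replicate numbers are names in order of deposit.

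MicroRNA-21 lowers mRNAs whose 3′ UTR matches its seed, bases 2 to 8 of the mature strand. The mature strand is printed first because it is the RNA that the KO groups lack, with the seed in capitals. It lies on the minus strand at chr11:86584120-86584141 (RefSeq, GRCm38.p6).
mmu-miR-21a-5p: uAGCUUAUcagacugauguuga
A match to the seed (ATAAGCT, or ATAAGCTA with the added A) was found in the annotated 3′ UTRs of 2 of the 42 genes, Dkk2 and Fzd3. That is 4.76%, beside 7.78% of the 15043 genes tested that have a 3′ UTR. The Dkk2 site is at chr3:132179972-132180001 on the plus strand and the Fzd3 sites are at chr14:65193778-65193807 and chr14:65193737-65193766 on the minus strand, all in the GENCODE vM21 annotation of mm10. They are printed because they are the places where the deleted microRNA could pair with a member. Each line gives 30 bases of the mRNA, with the match in capitals.
Dkk2 site: gaacaaaactcATAAGCTAatttacccaag
Fzd3 site, first: acttaagatacATAAGCTcttcactaagtc
Fzd3 site, second: ttcaagcttttATAAGCTgacatactgtca

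Axin2 and Wnt11 are shown by their promoter windows as examples of the 14 members that were higher in whole tumors than in lines in both genotypes. Each window runs from 250 bases before to 50 after the RefSeq start on GRCm38.p6. They were searched for CTTTGA, the core of the site bound by Tcf and Lef factors, on both strands, so it may also read TCAAAG. The motif was in a window of 5 of the 28 members that the promoter table holds (17.9%) and of 4911 of all 27025 genes in it (18.2%). The 5 are Dkk1, Frzb, Fzd1, Wnt11 and Wnt5b. In the Wnt11 window printed here the match is in capitals. A second Wnt11 window, chr7:98838595-98838894, holds no match and is not printed. The Axin2 window holds no match to these letters.
Axin2, chr11:108920099-108920398, plus strand: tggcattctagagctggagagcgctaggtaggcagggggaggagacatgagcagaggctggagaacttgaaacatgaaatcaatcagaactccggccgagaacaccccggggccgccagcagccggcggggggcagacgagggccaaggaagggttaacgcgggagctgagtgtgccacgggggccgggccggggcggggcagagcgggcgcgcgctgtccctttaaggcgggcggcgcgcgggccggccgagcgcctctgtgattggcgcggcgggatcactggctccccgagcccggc
Wnt11, chr7:98834862-98835161, plus strand: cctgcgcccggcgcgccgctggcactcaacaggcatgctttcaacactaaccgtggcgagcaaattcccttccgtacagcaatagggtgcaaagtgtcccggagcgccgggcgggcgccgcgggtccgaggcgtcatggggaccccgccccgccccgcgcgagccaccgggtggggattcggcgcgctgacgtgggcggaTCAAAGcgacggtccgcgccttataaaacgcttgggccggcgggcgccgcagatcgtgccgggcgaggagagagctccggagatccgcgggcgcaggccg

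Library totals ran from 24547650 to 31118113 counts, and a count of 0 in the smallest library allows up to 0.122 CPM (counts scaled to library size; the limit is 3 counts and covers counting error only). The labelled materials were checked with marker lists. Fibroblast markers (7 genes) summed to 2.16 to 14.0 CPM in lines and 1866 to 12393 CPM in tumors, and Dcn and Lum had 0 counts in every line. Epithelial markers (6 genes) summed to 7237 to 14433 CPM in lines, 5843 to 13662 CPM in WT tumors and 3731 to 7826 CPM in KO tumors, so the tumors hold both compartments. Acinar markers (6 genes) summed to 0.642 to 371 CPM in WT tumors and 9.15 to 2003 CPM in KO tumors. Among tumors, KO tumor 2 had the lowest fibroblast sum and the lowest level of 15 of the 35 members tested there. Among lines, WT line 3 had the highest fibroblast sum and the highest level of 8 of the 20 members tested. In whole tumors, fewer cells of a type and less RNA per cell cannot be told apart.

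Within this set, the lines held receptors and few ligands, and almost no mRNA of its 10 antagonists. Of the 42 genes, 15 had a mean of at least 1 CPM in WT lines and 18 in KO lines, against 29 in WT tumors and 30 in KO tumors. Within the set, the gap lay mostly among ligands and antagonists. More genes of all kinds were high enough to be tested in tumors (18125) than in lines (14020). The share of all genes at a mean of at least 1 CPM was not counted, so the gap is not shown to be particular to Wnt genes. At that level were 5 of 19 ligands in WT lines and 7 in KO lines, against 11 in WT tumors and 12 in KO tumors. For the antagonists it was 0 of 10 in WT lines and 1 in KO lines, against 6 in WT tumors and 7 in KO tumors. The Frizzled receptors did not show it, with 8, 8, 9 and 8 of 10 at that level in WT lines, KO lines, WT tumors and KO tumors. Wnt1, Wnt3, Wnt3a, Wnt8a, Wnt8b, Dkk1 and Dkk4 were too low to be tested in any comparison, though each had at least 1 count in the series.

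**Figure D1:**
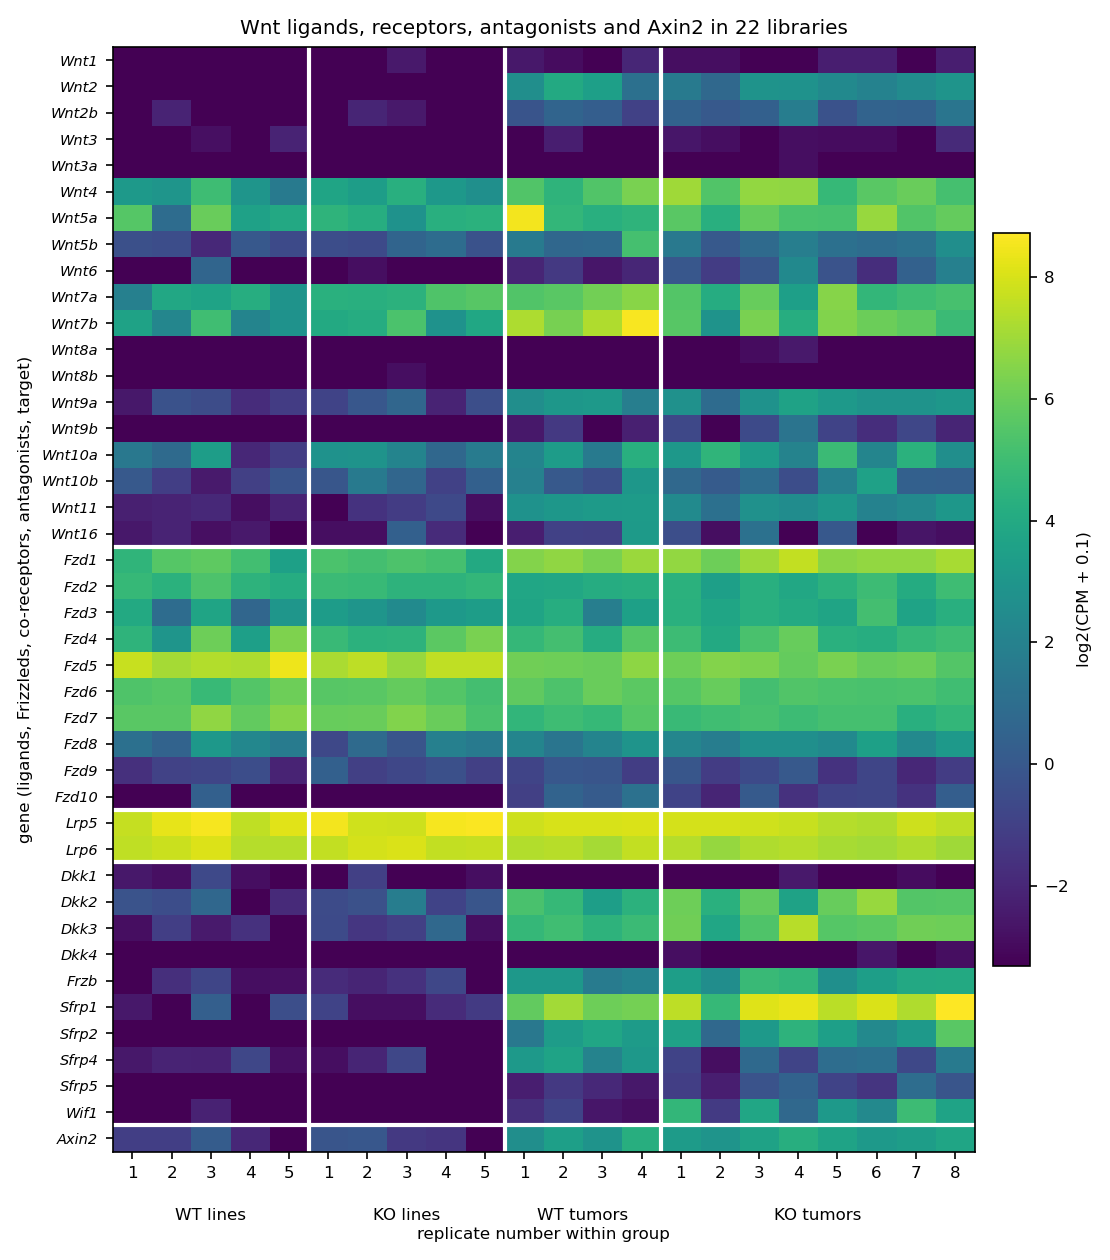
Level of each of the 42 genes (rows, by role) in each of the 22 libraries (columns, by group), as log2(CPM + 0.1) on a colour scale. The rows of Lrp5, Lrp6, Fzd5 and Fzd7 are bright in all groups, whereas those of Sfrp1, Sfrp2, Dkk2, Dkk3, Wnt2 and Axin2 are dark in the lines and bright in the tumors.

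Levels of different genes were compared per kb of exon. In WT lines the order was led by Fzd5 at 29.4 ± 12.5 CPM per kb (SD, n = 5) and Lrp5 at 28.5 ± 8.21, which did not differ beyond their spread. KO lines were led by Lrp5 at 33.1 ± 8.56 CPM per kb (n = 5), then by Fzd5 at 24.0 ± 4.71. Over all lines the ligands with the highest mean per kb were Wnt7a (6.58) and Wnt7b (3.16). That order was the one of the KO lines, with Wnt7a at 9.59 ± 4.42 and Wnt7b at 3.84 ± 2.50. In WT lines Wnt7a (3.57 ± 1.84), Wnt5a (3.55 ± 3.30), Wnt4 (2.81 ± 2.68) and Wnt7b (2.48 ± 2.44) did not differ beyond their spread. Among WT tumors the highest mean was that of a ligand, Wnt7b, at 39.6 ± 27.6 CPM per kb (SD, n = 4), beside Lrp5 at 26.0 ± 1.75 and Fzd1 at 23.6 ± 4.33, which it did not exceed beyond its spread. WT tumor 4 held 79.3 CPM per kb of Wnt7b, and without it the mean was 26.3, beside 25.5 for Lrp5. In KO tumors the highest mean was that of an antagonist, Sfrp1, at 53.4 ± 27.8 CPM per kb (n = 8), beside Fzd1 at 28.6 ± 8.96 and Lrp5 at 21.7 ± 3.69.

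Whole tumors were compared with lines of the same genotype, which asks how much of the Wnt gene set of a tumor is seen in its cultured cancer cells. In tumors of both genotypes 14 members rose (edgeR's quasi-likelihood test, adjusted p under 0.05): the ligands Wnt2, Wnt2b, Wnt4, Wnt9a and Wnt11, the antagonists Sfrp1, Sfrp2, Sfrp4, Sfrp5, Frzb, Dkk2 and Dkk3, the receptor Fzd1, and Axin2. Fzd5 and Fzd7 fell in both. Between WT groups, 19 of 35 tested members rose and 2 fell, beside 28% of all genes higher and 18.5% lower. Between KO groups, 19 rose and 4 fell, beside 34.2% higher and 22.9% lower. Of the 35, 15 passed the low-count filter in tumors and not in lines, so the filter itself favours a higher level in tumors for them and their calls add no support. They are Wnt2, Wnt2b, Wnt6, Wnt9b, Wnt11, Wnt16, Fzd10, Sfrp1, Sfrp2, Sfrp4, Sfrp5, Frzb, Dkk3, Wif1 and Axin2. Of the 14 members that rose in both genotypes, 10 are among them, and the other 4 are Dkk2, Fzd1, Wnt4 and Wnt9a. How many of all genes rose in both genotypes is not given here. Among the 20 that also passed in lines, 8 rose and 2 fell between WT groups, and 5 rose and 4 fell between KO groups. These counts do not set them apart from those shares of all genes. The shares also cover genes that did not pass in lines, so the sets compared are not alike. Several members are described below as not overlapping between tumors and lines. How common that is among all genes is not given here, so it describes a member and does not set it apart.

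**Figure D2:**
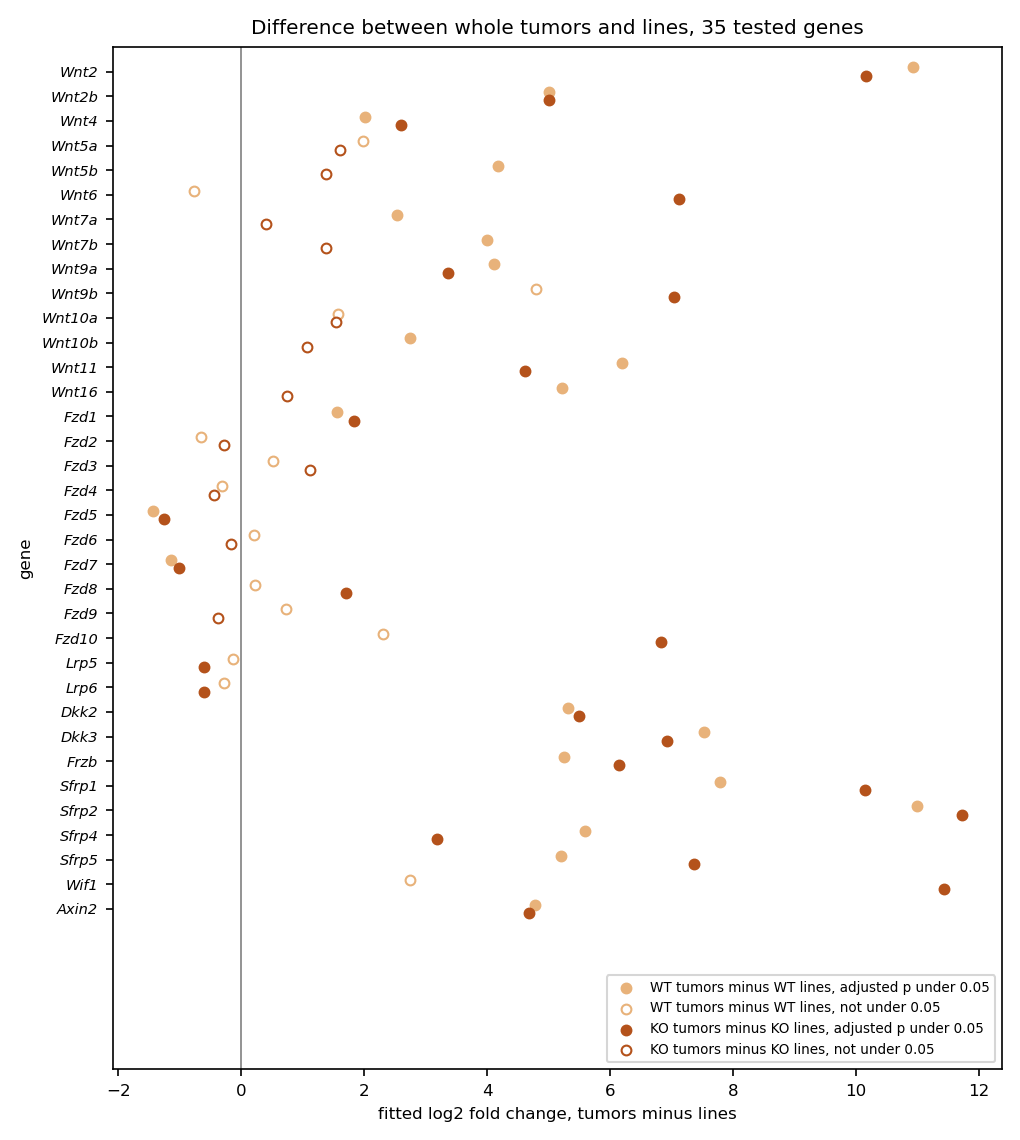
Fitted log2 fold change of tumors minus lines (horizontal axis) for the 35 tested genes, by role from ligands at the top to Axin2 at the bottom, between WT groups (light) and KO groups (dark); filled points had an adjusted p under 0.05. Antagonists lie between 2.75 and 11.71 and Frizzled receptors mostly near 0, and fitted values of genes with 0 counts in all lines of a genotype depend on the prior count and are no measure of size.

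Wnt2 (ENSMUSG00000010797.6, chr6:17988940-18030585), a ligand of the canonical pathway that fibroblasts and endothelium are known to make, had 0 counts in all 10 lines. It was at 6.09, 15.7, 11.1 and 2.09 CPM in the WT tumors and at 1.60 CPM (lowest), 5.37 (median) and 7.51 (highest) in the KO tumors. Every tumor was above every line. Wnt2 was at least 371-fold higher in WT and at least 227-fold higher in KO tumors, taken against a floor of 3 counts over the group of lines. Adjusted p was 2.40e-06 and 1.76e-06, which adds no support because Wnt2 passed the low-count filter through the tumors alone.

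Wnt11 (ENSMUSG00000015957.12, chr7:98835112-98855195), mostly known for signalling without β-catenin, had 0.0385 to 0.161 CPM in WT lines and 0 to 0.534 CPM in KO lines. Its levels were 6.90, 8.18, 9.33 and 9.86 CPM in WT tumors and ran from 2.12 over a median of 5.51 to 8.27 CPM in KO tumors. The groups did not overlap in either genotype. The fitted log2 difference was 6.19 ± 0.72 (SE) between WT groups (adjusted p = 1.51e-06) and 4.61 ± 0.63 between KO groups (adjusted p = 5.85e-06). Like Wnt2, Wnt11 passed the low-count filter through the tumors alone, so its calls add no support.

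Of the other ligands, Wnt2b, Wnt4 and Wnt9a also rose in tumors of both genotypes. Wnt4, which acts in the formation of several epithelial organs, had a log2 fold change of 2.01 ± 0.56 (WT) and 2.60 ± 0.53 (KO), and Wnt9a one of 4.12 ± 0.64 and 3.36 ± 0.58. The ligands Wnt5b, Wnt7a, Wnt7b, Wnt10b and Wnt16 passed between WT groups and not between KO groups. Without WT tumor 4, Wnt10b and Wnt16 no longer passed between WT groups, and Wnt5b passed between KO groups. Without KO line 3, KO tumor 2, KO tumor 4 or WT line 3, Wnt7b passed between KO groups. Wnt6 and Wnt9b passed between KO groups and not between WT groups. Wnt2b, Wnt6, Wnt9b and Wnt16 passed the low-count filter through the tumors alone, so their calls add no support. Whether the ligands called in only 1 genotype differ between genotypes is tested further below. Wnt5a, a ligand of β-catenin-independent signalling, passed in neither (adjusted p = 0.0587 and 0.0756), but it passed between WT groups without WT line 3 or without any 1 of WT tumors 2, 3 and 4, and between KO groups without WT line 2 or WT tumor 1. WT tumor 1 held 372 CPM of Wnt5a, against 19.2 to 25.5 CPM in the other WT tumors.

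Fzd5 (ENSMUSG00000045005.9, chr1:64730558-64737751), the receptor on which some pancreatic cancer lines depend, was lower in tumors. The WT lines had 214, 138, 162, 152 and 349 CPM and the KO lines 145, 187, 118, 189 and 189.8 CPM. WT tumors had 69.6, 67.5, 62.1 and 102 CPM, and KO tumors had 45.3 (lowest), 67.6 (median) and 90.5 CPM (highest). No tumor reached the lowest line of its genotype. Fitted log2 fold changes were -1.43 ± 0.26 (adjusted p = 1.78e-04) between WT groups and -1.26 ± 0.21 (adjusted p = 4.15e-05) between KO groups.

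Fzd7 (ENSMUSG00000041075.8, chr1:59482424-59486955), a receptor linked to epithelial stem cells, followed the same order. It was at 50.3, 50.2, 106, 57.9 and 94.7 CPM in WT lines and at 61.4, 64.0, 87.2, 62.7 and 38.8 CPM in KO lines. It was at 24.2, 31.8, 26.6 and 46.7 CPM in WT tumors and at 19.5, 31.8 and 37.7 CPM (lowest, median and highest) in KO tumors. Again all tumors lay below all lines of their genotype. On the log2 scale the fold change was -1.15 ± 0.27 (adjusted p = 0.00183) in WT and -1.02 ± 0.22 (adjusted p = 6.01e-04) in KO samples.

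Fzd1 was the Frizzled receptor that rose in tumors of both genotypes. Its level was 23.4, 47.0, 53.9, 33.4 and 11.5 CPM in WT lines and 91.7, 105, 78.6 and 121 CPM in WT tumors. In the KO lines it was 39.6, 35.3, 41.1, 36.1 and 16.1 CPM, and in the KO tumors it ran from 66.7 over a median of 110.5 to 196 CPM. No group of tumors overlapped its lines, and the log2 fold change was 1.55 ± 0.35 (WT) and 1.84 ± 0.32 (KO), with adjusted p of 0.00134 and 7.66e-05. Fzd8 (1.70 ± 0.50, adjusted p = 0.00703) also rose between KO groups. Fzd10 was called there too (adjusted p = 0.00354), but it passed the low-count filter through the tumors alone, so its call adds no support. Fzd10 had 0 counts in all KO lines and was at least 22.6-fold higher in KO tumors. Fzd2, Fzd3, Fzd4, Fzd6 and Fzd9 passed in neither genotype. Fzd2 (adjusted p = 0.0509 between WT groups) and Fzd3 (adjusted p = 0.0519 between KO groups) lay near the threshold and passed when some single libraries were left out.

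The co-receptors Lrp5 and Lrp6 were among the most abundant members in every group. Lrp5 (ENSMUSG00000024913.16, chr19:3584828-3686564) was at 362, 235, 229, 384 and 399.8 CPM in KO lines and at 158, 220.3 and 252 CPM (lowest, median and highest) in KO tumors, and these ranges overlapped. Lrp6 (ENSMUSG00000030201.15, chr6:134446476-134566965) was at 201, 251, 264, 199.8 and 207 CPM in KO lines and at 115, 149 and 169.5 CPM in KO tumors, with no overlap. Both fell between KO groups, by 0.61 on the log2 scale, with SE of 0.17 for Lrp5 and 0.13 for Lrp6 (adjusted p = 0.00565 and 5.15e-04). Between WT groups the log2 fold change was -0.13 ± 0.21 for Lrp5 (95% interval -0.57 to 0.30, adjusted p = 0.625) and -0.28 ± 0.16 for Lrp6 (-0.60 to 0.04, adjusted p = 0.145).

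**Figure D3:**
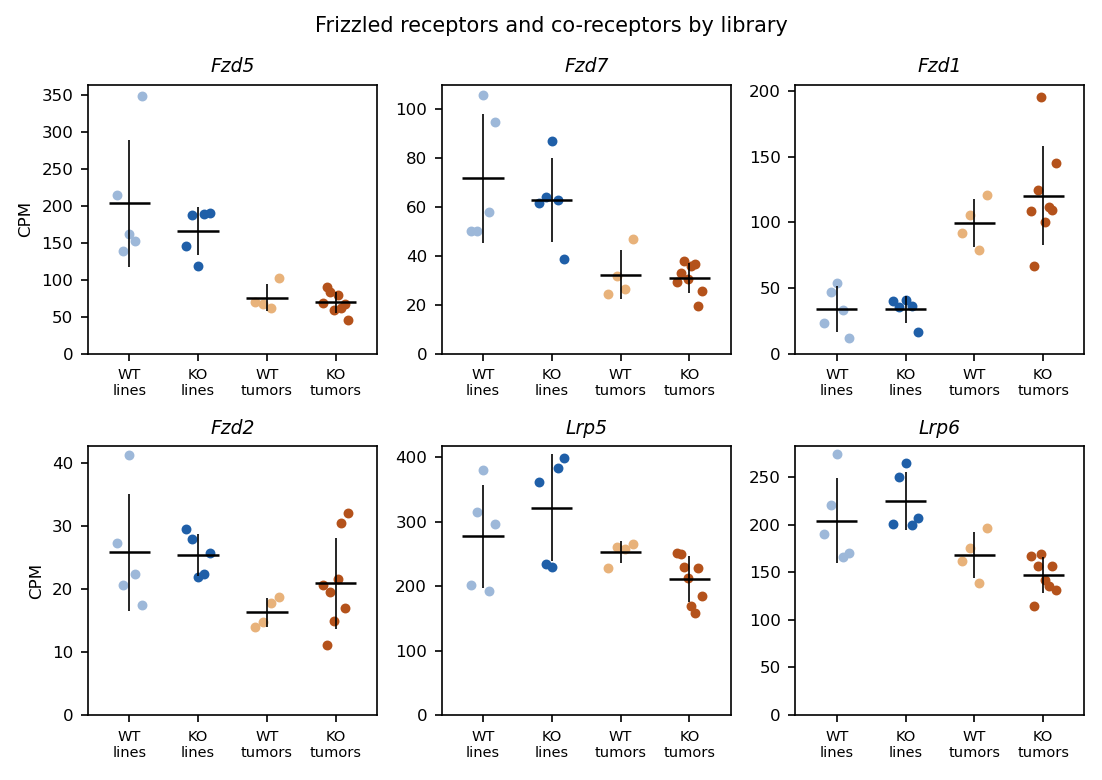
CPM (linear axis from 0) of Fzd5, Fzd7, Fzd1, Fzd2, Lrp5 and Lrp6 in each library, by group; horizontal lines are group means and vertical lines are SD (n = 5, 5, 4 and 8). All tumors lie below all lines of their genotype for Fzd5 and Fzd7 and above them for Fzd1, while the groups overlap for Lrp5.

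Of the 8 antagonists tested, 7 passed the low-count filter through the tumors alone, so how many of them rose is no support and their values stand as a description. Dkk2, which blocks the co-receptors, is the exception. It was at 0.741, 0.632, 1.53, 0 and 0.173 CPM in WT lines and at 0.581, 0.700, 3.33, 0.445 and 0.815 CPM in KO lines. The WT tumors held 39.2, 27.1, 10.7 and 21.4 CPM, and the KO tumors 12.1, 51.9 and 119 CPM (lowest, median and highest). Every tumor was above every line, and the log2 fold change was 5.31 ± 0.83 (adjusted p = 4.46e-05) between WT and 5.50 ± 0.79 (adjusted p = 1.02e-05) between KO groups.

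Sfrp1 (ENSMUSG00000031548.7, chr8:23411502-23449632), which binds Wnt ligands through a Frizzled-like domain, was at 0.0741, 0, 1.17, 0 and 0.647 CPM in WT lines. The KO lines held 0.435, 0.0350, 0.0383, 0.178 and 0.319 CPM. In WT tumors it was at 57.4, 132, 67.7 and 75.1 CPM, and in KO tumors at 27.2, 228 and 426 CPM (lowest, median and highest). Every tumor was above every line. Log2 fold changes were 7.78 ± 0.88 (adjusted p = 1.13e-06) and 10.14 ± 0.95 (adjusted p = 7.69e-08).

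Sfrp2, a second Frizzled-like decoy known from fibroblasts, had 0 counts in all lines, and 2.70, 9.998, 14.1 and 9.76 CPM in WT tumors. The KO tumors held 1.60, 10.1 and 50.8 CPM (lowest, median and highest). It was at least 384-fold higher in WT tumors and at least 653-fold higher in KO tumors than the floor of the lines. Without KO tumor 8, the highest, the bound in KO tumors was 433-fold. Dkk3, a more distant Dkk gene, was at 26.2, 32.5, 22.3 and 29.3 CPM in WT tumors and at 13.8, 59.5 and 172 CPM in KO tumors, and no line passed 1.56 CPM. Its log2 fold change was 7.53 ± 0.84 (WT) and 6.92 ± 0.75 (KO).

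Frzb, Sfrp4 and Sfrp5 passed in both genotypes as well. Frzb, also a Wnt-binding decoy, had a log2 fold change of 5.25 ± 0.86 (WT) and 6.15 ± 0.84 (KO), and Sfrp4 one of 5.59 ± 1.10 and 3.18 ± 0.97. Wif1, which binds Wnt ligands through a domain of its own, had 0 counts in every line but WT line 3, which held 0.121 CPM. It was at least 567.5-fold higher in KO tumors than in KO lines (adjusted p = 2.51e-05). Between WT groups the ratio of pooled CPM was 7.80, with a 95% counting interval of 2.34 to 40.7 (adjusted p = 0.113).

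Axin2 (ENSMUSG00000000142.15, chr11:108920349-108950783), the feedback gene, was at 0.371, 0.379, 1.05, 0.154 and 0 CPM in WT lines and at 0.798, 0.875, 0.307, 0.267 and 0 CPM in KO lines. The WT tumors held 6.13, 11.2, 7.31 and 18.5 CPM, and the KO tumors 7.41, 11.4 and 18.5 CPM (lowest, median and highest). Every tumor was above every line. Its log2 fold change was 4.77 ± 0.82 (adjusted p = 1.16e-04) between WT groups and 4.68 ± 0.77 (adjusted p = 4.66e-05) between KO groups. Axin2 too passed the low-count filter through the tumors alone, so its calls add no support and its values stand as a description.

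**Figure D4:**
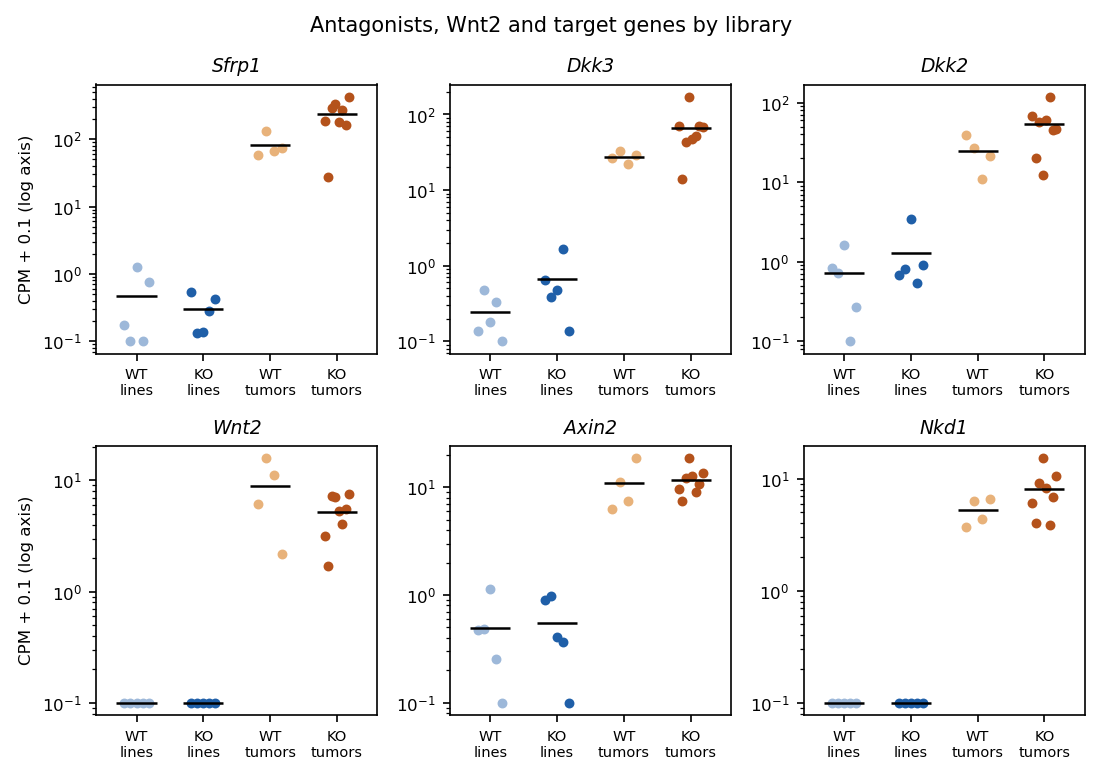
CPM + 0.1 on a log axis for the antagonists Sfrp1, Dkk3 and Dkk2, the ligand Wnt2 and the feedback genes Axin2 and Nkd1 in each library, by group; horizontal lines are means of the plotted values. Every tumor lies above every line, and points at 0.1 are libraries with 0 counts, as for Wnt2 and Nkd1 in all 10 lines.

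From a list of 49 other pathway genes, 45 were tested, and 14 rose and 10 fell between WT groups while 14 rose and 11 fell between KO groups. These counts do not stand apart from the 28% higher and 18.5% lower (WT) and the 34.2% and 22.9% (KO) of all genes. The list's median log2 fold change was 0.08 and 0.12, beside 0.13 and 0.17 for all genes. The feedback inhibitors Nkd1 and Nkd2 rose like Axin2: Nkd1 had 0 counts in all lines and 3.61 to 6.52 CPM in WT and 3.80 to 15.1 CPM in KO tumors, and Nkd2 had a log2 fold change of 7.08 ± 0.58 (WT) and 7.50 ± 0.57 (KO). The factor Lef1 (5.60 ± 1.28 and 6.74 ± 1.25) and the amplifying ligand Rspo1 (6.13 ± 1.17 and 7.68 ± 1.06) rose too. Only 36 of the listed genes passed the low-count filter in lines, so the filter favours a higher level in tumors for the rest. Nkd1, Nkd2, Lef1 and Rspo1 passed through the tumors alone, so their rises add no support. KO tumor 8 held 26.0 CPM of Lef1, against 0.174 to 5.03 CPM in the other KO tumors. It also had the highest sum of the 4 leukocyte markers, 703 CPM, whose part was not tested. Of 12 cytoplasmic genes, 6 fell and 1 rose between WT groups, and 8 fell and 0 rose between KO groups, beside the same 18.5% and 22.9% of all genes lower. Dvl2, a Dishevelled protein, had log2 fold changes of -0.995 ± 0.17 and -1.25 ± 0.14. Ccnd1 and Myc, target genes that many other signals also drive, went the opposite way to Axin2, with log2 fold changes of -0.74 ± 0.29 and -0.85 ± 0.30 (WT) and -1.53 ± 0.24 and -1.75 ± 0.25 (KO). Of the 6 target and feedback genes listed, the other 2, Apcdd1 and Sp5, were not called in either genotype. Pooled levels of Apcdd1 were 12.6 (WT tumors), 14.0 (WT lines), 7.91 (KO tumors) and 9.40 CPM (KO lines). Those of Sp5 were 2.35, 1.11, 1.67 and 0.399 CPM in the same order.

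The 7 fibroblast markers, 5 endothelial markers and 4 leukocyte markers were likewise higher in tumors, with summed levels of 120.4 to 462 CPM (endothelial) and 100.3 to 703 CPM (leukocyte) in tumors against 0.363 to 4.32 and 2.78 to 6.64 CPM in lines. Their part in the differences was not tested, and the cell types present and culture itself cannot be told apart. Without WT line 3, which alone among WT lines held Wnt6, Wif1 and Fzd10, 26 members passed between WT groups instead of 21, beside 48.2% of all genes. Within limma-voom, adding the animal as a replicate block added Fzd2 to the WT calls and changed no KO call.

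KO and WT lines were compared next, to see which Wnt genes differed without microRNA-21 in cultured cancer cells. None of the 20 tested members passed, beside 0.0143% of all genes, and 2 had an unadjusted p under 0.05 (Wnt7a and Wnt10b), beside 6.99% of all genes. DESeq2 called 0 as well, beside 0.331% of all genes.

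Wnt7a (ENSMUSG00000030093.7, chr6:91363981-91411363), the ligand with the highest mean per kb over all lines, was at 20.03, 19.5, 21.4, 42.3 and 48.8 CPM in KO lines. In WT lines it was at 3.71, 15.0, 12.6, 18.1 and 7.21 CPM. All 5 KO lines were above all 5 WT lines, as were 0.742% of all genes tested. The log2 fold change was 1.43 ± 0.44 (95% interval 0.47 to 2.39), with an adjusted p of 0.713 by edgeR.

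Wnt10b, which is known for holding back fat cell formation, was at 0.835, 2.91, 1.49, 0.401 and 1.21 CPM in KO lines and at 0.927, 0.379, 0.0804, 0.385 and 0.777 CPM in WT lines. These overlapped, and the log2 fold change was 1.42 ± 0.64 (adjusted p = 0.714). The next smallest p values were those of Wnt5b (0.80 ± 0.50), Fzd8 (-1.02 ± 0.63), Fzd9 (0.73 ± 0.50) and Wnt9a (0.89 ± 0.67). For the co-receptors the log2 fold change was 0.22 (95% interval -0.29 to 0.73) for Lrp5 and 0.14 (-0.22 to 0.49) for Lrp6. Axin2 was too low in lines to be tested there.

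Of the 36 other pathway genes tested in lines, 0 passed and 7 had an unadjusted p under 0.05, beside 6.99% of all genes. The Dishevelled gene Dvl1 (0.58 ± 0.16) and the co-receptor Ptk7 (0.70 ± 0.18) were higher in every KO line than in every WT line, as were 0.742% of all genes. Adjusted p was 0.713 and 0.671. Rnf43, which removes Frizzled receptors from the surface, had a log2 fold change of 0.64 ± 0.19.

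KO and WT tumors were then compared. No member passed in 35 tested, beside 0.011% of all genes, but 10 had an unadjusted p under 0.05, beside 16.7% of all genes. DESeq2 called 5 members: Wif1, Wnt6 and Sfrp1 higher and Sfrp4 and Wnt7b lower in KO tumors, beside 5.07% of all genes called by DESeq2. Of the 8 antagonists tested, 7 had a positive and 1 a negative log2 fold change, with a median of 1.25. The median was -0.45 over 14 ligands, -0.08 over 10 Frizzled receptors and 0.01 over all genes.

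Wif1 (ENSMUSG00000020218.11, chr10:121033960-121100650) had the smallest p. The WT tumors held 0.210, 0.438, 0.0642 and 0.0360 CPM and the KO tumors 0.313 (lowest), 10.7 (median) and 31.1 CPM (highest). KO tumor 2 lay within the WT tumors, and the other 7 were above all of them. For Wif1 the log2 fold change was 5.995 ± 1.26 (95% interval 3.26 to 8.73, unadjusted p = 3.87e-04 by edgeR), and adjusted p was 0.116. With the mean of the fibroblast, acinar or epithelial markers as a covariate the log2 fold change was 5.11, 6.05 or 6.48.

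Sfrp4 (ENSMUSG00000021319.7, chr13:19623104-19632994), another Frizzled-like decoy, went the other way. It was at 8.89, 12.8, 4.11 and 8.57 CPM in WT tumors and at 0.0348, 1.07 and 3.06 CPM (lowest, median and highest) in KO tumors. All 8 KO tumors were below all 4 WT tumors, as were 0.789% of all genes tested. The log2 fold change was -2.80 ± 0.70 (95% interval -4.32 to -1.28), with an adjusted p of 0.139. It was -3.87, -3.17 and -2.97 with the fibroblast, acinar and epithelial covariates.

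Sfrp1 was at 57.4 to 132 CPM in WT tumors, while 7 KO tumors held 159.7 CPM or more and KO tumor 2 held 27.2. The log2 fold change was 1.46 ± 0.51 (adjusted p = 0.202). Without KO tumor 2, Sfrp1 (1.63, adjusted p = 0.0485) and Wif1 (6.18, adjusted p = 0.0341) passed, beside 0.454% of all genes. With the mean of the fibroblast markers as a covariate the log2 fold change of Sfrp1 was 0.38, and with that of the acinar markers it was 0.88. Fibroblast markers summed to 2785 to 7551 CPM in WT and 1866 to 12393 CPM in KO tumors.

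Sfrp5 was low throughout, at 0.105, 0.303, 0.160 and 0.0720 CPM in WT tumors and at 0.104, 0.594 and 1.89 CPM in KO tumors. Its log2 fold change was 2.14 ± 0.73 (adjusted p = 0.195), and 1.26, 1.78 and 2.24 with the fibroblast, acinar and epithelial covariates. Frzb (1.26 ± 0.46) and Dkk3 (1.24 ± 0.47) likewise reached an unadjusted p below 0.05.

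Among ligands, Wnt7b (ENSMUSG00000022382.14, chr15:85535437-85582473), which is made by epithelia, was at 153, 75.6, 158 and 389 CPM in WT tumors. KO tumors held 7.20 (lowest), 50.7 (median) and 88.3 CPM (highest). The KO tumors 3 and 5 overlapped WT tumor 2, and the other 6 were below all WT tumors. For Wnt7b the log2 fold change was -2.03 ± 0.55 (adjusted p = 0.145). It was -1.01 with the mean of the epithelial markers as a covariate, and -2.05 and -2.19 with the fibroblast and acinar covariates. It was -1.22 without KO tumors 4 and 8 and WT tumor 4, which had the highest acinar sums of their genotypes. WT tumor 4, with the highest Wnt7b, also had the highest epithelial sum.

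Wnt6 (ENSMUSG00000033227.7, chr1:74771892-74785322), a ligand made by some epithelia and mesenchyme, was at 0.140, 0.303, 0.0642 and 0.144 CPM in WT tumors and at 0.200, 0.848 and 5.27 CPM in KO tumors. Only KO tumor 6 was not above all WT tumors. For Wnt6 the log2 fold change was 3.28 ± 0.94 (adjusted p = 0.148). It was 1.81 with the fibroblast, 1.82 with the acinar and 2.49 with the epithelial covariate. The highest levels, 5.27 and 3.75 CPM, were in KO tumors 4 and 8, which also had the highest acinar and fibroblast sums. Wnt5b had a log2 fold change of -2.03 ± 0.76, with 36.1 CPM in WT tumor 4 and at most 6.19 CPM in any other tumor.

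**Figure D5:**
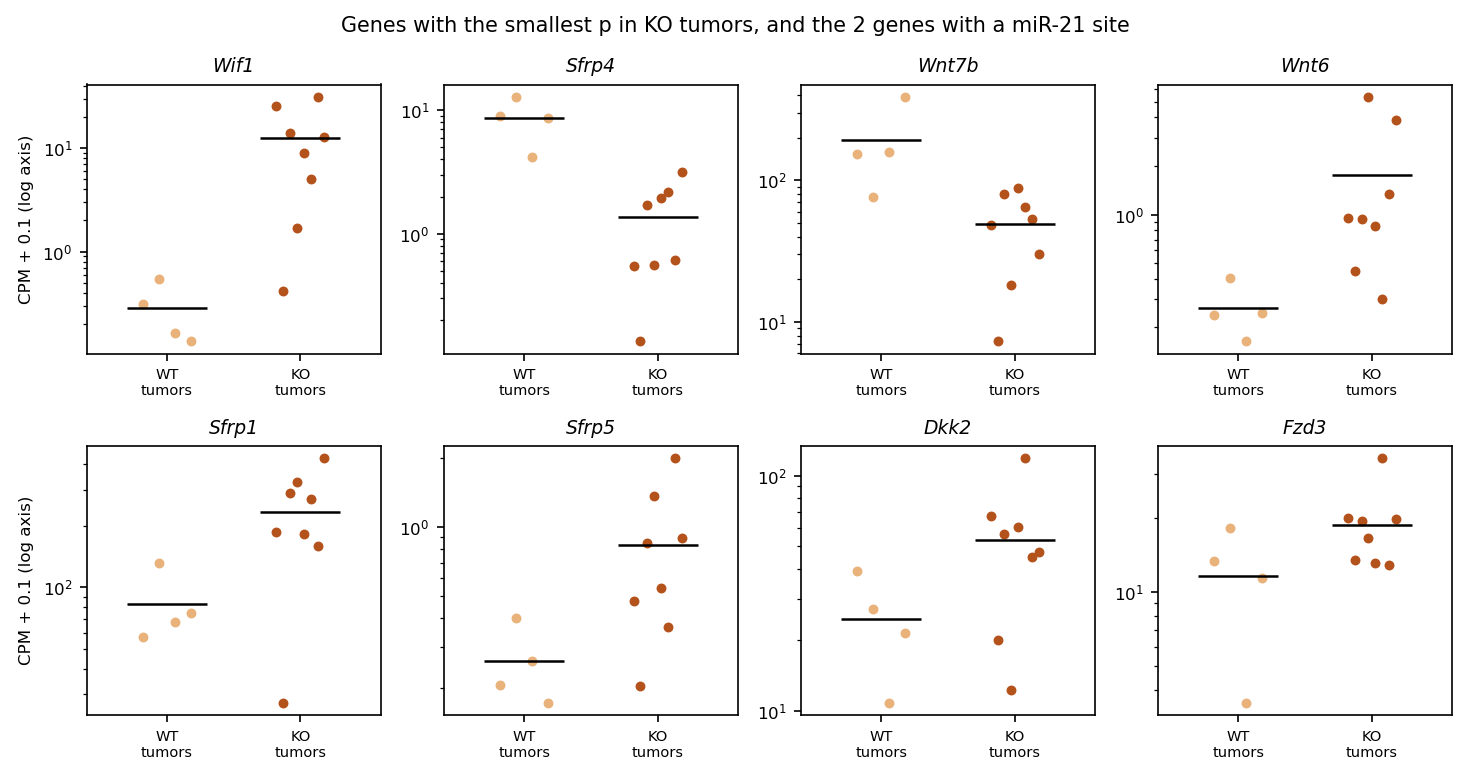
CPM + 0.1 on a log axis in the 4 WT and 8 KO tumors, for the 6 members with the smallest p and for Dkk2 and Fzd3, the members with a microRNA-21 site; horizontal lines are means of the plotted values. Sfrp4 is the gene whose groups do not overlap, and the lowest KO points of Wif1, Wnt7b and Sfrp1 are all KO tumor 2.

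Among receptors and targets no difference between KO and WT tumors passed. Of the Frizzled receptors, Fzd10 (-1.29 ± 0.54) alone reached an unadjusted p below 0.05. Among the others, log2 fold changes were -0.29 for Lrp5 (95% interval -0.61 to 0.03), -0.23 for Lrp6 (-0.50 to 0.05), -0.14 for Fzd5 (-0.56 to 0.28) and -0.08 for Fzd7 (-0.53 to 0.36). Axin2, at 6.13 to 18.5 CPM in WT and 7.41 to 18.5 CPM in KO tumors, had a log2 fold change of 0.09 ± 0.30 (95% interval -0.56 to 0.73, adjusted p = 0.915).

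The members with a microRNA-21 site gave no call in either material. Dkk2, with the tumor values given above, overlapped between genotypes, and 6 of the 8 KO tumors were above all WT tumors. Its log2 fold change was 1.09 ± 0.52 in tumors (95% interval -0.04 to 2.23, adjusted p = 0.316) and 0.93 ± 0.90 in lines (-1.06 to 2.91, adjusted p = 0.815). Fzd3, which acts in axon guidance and planar polarity, was at 13.2, 17.98, 3.46 and 11.3 CPM in WT tumors and at 12.7, 17.9 and 34.7 CPM in KO tumors. Its log2 fold change was 0.68 ± 0.38 in tumors (-0.14 to 1.51, adjusted p = 0.389) and 0.09 ± 0.59 in lines (-1.20 to 1.39, adjusted p = 0.976).

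Among 45 other pathway genes in tumors, 0 passed and 9 had an unadjusted p under 0.05, a share not apart from the 16.7% of all genes. The smallest p values were those of the receptor kinase Ror1 (0.90 ± 0.26), Rspo1 (2.58 ± 0.74), the β-catenin partner Pygo1 (1.17 ± 0.40) and Notum, an enzyme that strips the lipid from Wnt ligands (2.35 ± 0.81). All 4 were higher in KO tumors, with adjusted p of 0.148 to 0.196. Myc (-0.70 ± 0.29) and Ccnd1 (-0.74 ± 0.31) were lower.

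Whether the KO effect differed between tumors and lines was tested over all 22 libraries. Of 35 members 0 passed, beside 0% of all genes (0 genes), and 7 had an unadjusted p under 0.05, beside 8.25% of all genes. DESeq2 called 2 members, Wif1 and Wnt6, beside 0.361% of all genes. Wif1 (adjusted p = 0.446 by edgeR) had 0 counts in all KO lines, so its fitted difference is no measure of size. For Wnt2, Sfrp2, Sfrp5 and Wnt9b, with 0 counts in all lines, no line effect exists to compare.

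Wnt7a had opposite signs in the 2 materials, at 1.43 ± 0.44 in lines and -0.74 ± 0.45 in tumors, where the WT tumors held 44.5, 50.9, 70.7 and 96.1 CPM and the KO tumors 10.9, 34.6 and 94.2 CPM (lowest, median and highest). The difference was -2.13 ± 0.67 (95% interval -3.51 to -0.74, adjusted p = 0.446). Wnt7b showed a difference of -2.62 ± 0.88 (adjusted p = 0.446), from 0.63 ± 0.62 in lines and -2.03 ± 0.55 in tumors. For Wnt6 the difference was 7.89 ± 2.27 (adjusted p = 0.428) and was 1.896 without WT line 3. Those of Wnt5b (-2.79 ± 1.01) and Wnt16 (-4.47 ± 2.09) were -0.44 and -1.40 without WT tumor 4.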

How the data were processed

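RNA was extracted with TRIzol and sequenced from a KAPA stranded mRNA library, single-end, per the labels' protocols. The values are raw read counts per Ensembl gene as the authors deposited them; bcl2fastq 1.9.0, Trim Galore, STAR and mm10 are named in the submitters' processing notes, while the annotation and strand setting of the counting are not given in the sources used here. Ensembl IDs were matched to symbols, and 105 genes without one (0.00944% of counts) stayed in the fits.

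Counts were tested with edgeR 4.0.16 (R 4.3.3; TMM, default low-count filter by group, robust quasi-likelihood fit) and p-values were Benjamini-Hochberg adjusted over all genes tested, with a threshold of 0.05. Lines and tumors were fitted apart for KO against WT (14020 and 18125 genes). All 22 libraries went into 1 fit for tumors against lines and for the difference of KO effects (18662 genes). Standard errors come from the log2 fold change and its F statistic, and 95% intervals use the t distribution with the fit's degrees of freedom. CPM uses TMM-scaled library totals. The tests were checked on simulated counts, drawn once for each comparison, with true log2 changes of 0.5, 1 and 2 spread over 200 genes. Between KO and WT lines 0%, 28.4% and 74.2% of these were called. Between KO and WT tumors it was 0%, 19.4% and 48.5%, and for the difference of KO effects 0%, 7.46% and 36.4%. Between tumors and lines it was 2.99%, 23.9% and 60.6% (WT) and 7.46%, 34.3% and 60.6% (KO). In the data far more than 200 genes were called between tumors and lines. Between KO and WT the simulation gave 69 calls in lines and 45 in tumors, and the data gave 2 and 2. The rates thus describe the simulated setting alone. A missing call therefore does not show that a gene is unchanged. Alternatives used DESeq2 1.42.0, limma 3.58.1, other scalings and filters, marker covariates and left-out libraries. No libraries held identical values, and p-values measure the spread between these animals and cultures.

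The titles tie a line to a tumor for 5 animals. With the animal as a block, the estimated correlation was 0.287. The replicate numbers follow the order of deposit and pair nothing.

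The members and lists were chosen with earlier results of these data known. Named genes were the members called, or with the 6 smallest p, in each KO comparison; the largest called changes between tumors and lines; the 2 most abundant members of each role per kb; and Axin2, Lrp5 and Lrp6. Dkk2 and Fzd3 were added for their microRNA-21 sites, and genes named for values of single libraries were picked after these were seen.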

Additional observations from a re-analysis of the deposited data

Results flagged for a closer look

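In 12 of 128 groups of libraries examined, 1 library stood apart from the rest of its group by Dixon's criterion. Chance alone marks about 1 in 20 groups of continuous values, and libraries share genes, so the marks are not independent. Where all other libraries of a group have 0 counts, any read gives a mark, so that rate does not apply. This holds for Fzd10, Wif1 and Wnt6 in WT line 3, Wnt2b in WT line 2 and Wnt6 in KO line 2.

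WT line 3 was the only WT line with counts of Wnt6 (1.408 CPM), Fzd10 (1.207 CPM) and Wif1 (0.1207 CPM), against 0 in the other 4. It also had the highest fibroblast marker sum of all lines, 14.0 CPM, whose part in these values was not tested. KO tumor 2 held 27.21 CPM of Sfrp1, against 159.7 to 426.4 CPM in the other KO tumors, and 1.74 CPM of Wnt9a, against 6.739 to 12.3 CPM. Its fibroblast sum of 1866 CPM was the lowest of all tumors.

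KO line 3 held 3.335 CPM of Dkk2 (0.4451 to 0.8153 CPM in the other KO lines) and 6.9 CPM of Wnt5a (17.89 to 22.65 CPM). WT tumor 1 held 371.9 CPM of Wnt5a, against 19.15 to 25.55 CPM in the other WT tumors. KO tumor 6 held 34.67 CPM of Fzd3 (12.7 to 19.87 CPM in the other KO tumors), and KO line 5 held 16.13 CPM of Fzd1 (35.29 to 41.05 CPM). WT line 2 was the only WT line with counts of Wnt2b (0.1264 CPM), and KO line 2 the only KO line with counts of Wnt6 (0.03501 CPM), both within reach of a few reads.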

How the results depend on the processing

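In tumors, DESeq2 called 5 members between KO and WT where edgeR called 0, and leaving out 1 library gave 0 to 2, the 2 being Sfrp1 and Wif1 without KO tumor 2. For the difference of KO effects DESeq2 called 2 and edgeR 0. The log2 fold change of Axin2 between KO and WT tumors was -0.21 with the fibroblast covariate and -0.25 with the acinar covariate, and ran from -0.10 to 0.48 with 1 library left out (-0.03 without KO tumor 4, -0.05 without WT tumor 3). The cause was not tested. In tumors against lines, the number of members called stayed between 18 and 26 (WT) and between 19 and 27 (KO). The replicate block by animal, fitted in limma-voom, gave 23 calls between WT groups, 24 between KO groups and 0 for the difference of KO effects, and limma-voom without the block gave 22, 24 and 0. Members near 0 counts in lines have no line effect that this depth could show.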
